A study of Mus musculus with 16 samples.

Results

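Fcrl5, Cd300e, Lpl, Acp5, Cadm1, Dnase1l3, Mmp13 and Mmp12 are 8 of the 31053 genes counted in single CD45+ cells of mouse tumors, and they were chosen because they led the macrophages or dendritic cells of Panc02-SIY tumors over those of MC38 tumors. The difference between the tumors was therefore used to pick them and is described here with no test. The comparison of radiation-treated with untreated tumors was not used to pick them and was tested. All 8 genes were found by symbol, each with 1 Ensembl identifier, and all are followed across cell classes and the 4 groups.

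The genes fall into 4 kinds by their known roles. Fcrl5, a member of the Fc receptor-like family best known from B cells, and Cd300e, an activating receptor of monocytes that signals through the adaptor encoded by Tyrobp, are surface receptors of the immunoglobulin superfamily. Cadm1 encodes a nectin-like adhesion molecule that type 1 dendritic cells carry and that binds Crtam on lymphocytes. Lpl encodes lipoprotein lipase, which releases fatty acids from circulating lipoproteins, and Acp5 encodes tartrate-resistant acid phosphatase, a classical enzyme of osteoclasts that some macrophages also make. Dnase1l3 encodes a secreted nuclease of macrophages and dendritic cells that degrades DNA in chromatin and microparticles. Mmp12, the macrophage elastase, and Mmp13, a collagenase, are secreted proteases that cut elastin and fibrillar collagen. Macrophages of a tumor come from blood monocytes and from resident cells, and they take on different programs in different tumors.

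The study implanted MC38, a mouse colorectal carcinoma line, or Panc02-SIY, a mouse pancreatic carcinoma line carrying the model antigen SIY, under the skin of the right flank of C57BL/6J mice, which its methods give as 6 to 8 weeks old. The 4 groups were untreated MC38, MC38 at 24 h after a single dose of 12 Gy to the tumor, untreated Panc02-SIY, and Panc02-SIY at 24 h after the same dose. Each group had 4 libraries (16 in all), made from live cells sorted for CD45, the pan-leukocyte marker. Each tumor type is 1 transplanted line, so the tumor and its line cannot be told apart. The series gives 4 animals per group and the methods give 3, so p-values measure the spread between libraries, which may in part be technical.

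The stretches before the start sites of the proteases and of Fcrl5 are shown because Mmp12 and Mmp13, which lie side by side in the genome, differ below in which macrophages hold their RNA, and because Fcrl5 is the member closest to absent in MC38. All are 250 bases long, end at the base before a RefSeq start in the GRCm38.p6 assembly, and are written 5′ to 3′ on the gene's strand, here the plus strand in every case. Fcrl5 lies at chr3:87435532-87435781, Mmp13 at chr9:7272264-7272513, and the Mmp12 starts at chr9:7344147-7344396 and chr9:7347124-7347373. Capitals mark matches on either strand, and no match overlaps another. The sequence TATAAA is that of a TATA box, and GAGGAAGT is a site of PU.1. TGANTCA is a loose form of the AP-1 site, which is TGAGTCA or TGACTCA. The Fcrl5 match, TGATTCA, has another central base.
Fcrl5: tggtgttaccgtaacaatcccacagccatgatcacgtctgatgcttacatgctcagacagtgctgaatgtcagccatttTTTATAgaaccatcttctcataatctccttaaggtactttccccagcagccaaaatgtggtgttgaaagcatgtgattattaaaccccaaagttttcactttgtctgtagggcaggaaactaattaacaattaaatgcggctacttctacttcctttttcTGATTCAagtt
Mmp13: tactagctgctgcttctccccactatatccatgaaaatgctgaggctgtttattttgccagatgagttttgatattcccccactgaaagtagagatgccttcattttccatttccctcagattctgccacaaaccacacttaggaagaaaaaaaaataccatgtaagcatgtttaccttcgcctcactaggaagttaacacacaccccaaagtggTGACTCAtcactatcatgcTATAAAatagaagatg
Mmp12, upstream start: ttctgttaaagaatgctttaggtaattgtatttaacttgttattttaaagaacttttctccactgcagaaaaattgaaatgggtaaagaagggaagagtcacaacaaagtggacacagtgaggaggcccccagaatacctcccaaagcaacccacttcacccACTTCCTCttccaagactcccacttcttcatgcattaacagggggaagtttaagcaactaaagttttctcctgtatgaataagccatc
Mmp12, downstream start: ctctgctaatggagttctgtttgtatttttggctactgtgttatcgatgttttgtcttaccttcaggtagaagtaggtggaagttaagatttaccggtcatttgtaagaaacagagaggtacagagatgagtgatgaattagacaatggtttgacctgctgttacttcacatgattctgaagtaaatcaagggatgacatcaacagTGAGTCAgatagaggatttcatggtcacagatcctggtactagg
TGANTCA was matched before the starts of Fcrl5, of Mmp13 and of the downstream Mmp12 start, beginning 11, 35 and 44 bases before the start. Of 32851 mouse promoter stretches of the same length, 6.75% held it. TATAAA was matched in Mmp13, beginning 16 bases before the start, and in Fcrl5, 171 bases before it, and 12.4% of all stretches held it. GAGGAAGT was matched only before the upstream Mmp12 start, against 2.44% of all stretches. CACGTG (an E-box, in 6.02% of all stretches) and TTGCGCAA (a C/EBP motif, in 0.164%) were matched in none of the 8 stretches listed for these genes, which include those of Acp5 and Cd300e. The RefSeq table used held stretches for these 5 of the 8 genes. A match is a run of letters in this window and was not tested as a binding site. In GRCm38 the annotated Mmp13 gene spans chr9:7272514-7283331 and Mmp12 spans chr9:7344381-7369499, both on the plus strand and 61.05 kb apart.

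Depth differed between the tumors and touches every value below. MC38 libraries held 3240877 to 10121198 UMIs (unique molecular identifiers, 1 per counted RNA molecule) and Panc02-SIY libraries 5327146 to 43776342, with medians of 1419 to 2070.5 and 3175 to 6412 UMIs per cell barcode. The MC38 libraries shared their barcodes, since 9843 barcodes were only 2632 distinct sequences and 769 of these occurred in all 8 libraries. Pairs of MC38 libraries shared 71.9% to 92.1% of the smaller library's barcodes. The 769 span both treatments, so untreated and irradiated MC38 libraries are not fully separate samples. Counts of MC38 barcodes and UMIs below include the repeats unless stated. In Panc02-SIY, 18835 barcodes were 18136 distinct sequences. MC38 values were therefore also computed with each barcode kept only in the library where it had the most UMIs.

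Of 28678 barcodes, 8714 fell into 6 clusters named macrophage-like from a marker list, by clustering in which the 8 genes took no part. They made up 71.1% of untreated and 72.5% of irradiated MC38 barcodes, but 9.24% and 8.18% in Panc02-SIY. The macrophages of the tumors hardly shared clusters. Clusters 8 and 22, the second of which holds cycling cells, had 1250 barcodes from Panc02-SIY and none from MC38, whereas clusters 0, 7 and 9 held 6331 MC38 and 106 Panc02-SIY barcodes. Cluster 10 held 739 and 288. Comparisons of macrophages between the tumors therefore set mostly clusters 8 and 22, with 1250 of the 1644 Panc02-SIY macrophage-like barcodes, against clusters 0, 7 and 9. The Panc02-SIY libraries had 30, 152, 87 and 631 macrophage-like barcodes untreated and 62, 103, 125 and 454 irradiated, and replicate 1 was the thinnest of both groups.

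The label held in part. All 12 macrophage markers were above 0 in every library's macrophage-like barcodes, with summed levels of 25110 to 29870 CPM (UMIs of a gene per 1000000 UMIs of those barcodes) in MC38 and 10542 to 18893 CPM in Panc02-SIY. With the libraries of a group summed, C1qa, a complement subunit, was at 4258 and 4154 CPM in untreated and irradiated MC38 and at 4603 and 4913 CPM in Panc02-SIY. The Panc02-SIY barcodes also carried more RNA of T cell markers, whose sum over 12 genes was 219.8 to 808 CPM against 32.3 to 76.9 CPM in MC38. The sum of 8 tumor or stromal markers was 107 to 208 CPM in Panc02-SIY and 27.8 to 42.9 CPM in MC38, that of 12 dendritic cell markers 287 to 645 and 232 to 335 CPM, and that of 8 NK cell markers 28.7 to 205 and 8.96 to 36.5 CPM. Monocyte markers went the other way, with a sum over 9 genes of 190.1 to 689 CPM in Panc02-SIY and 2128 to 3662 CPM in MC38. The sum of 8 neutrophil markers overlapped between the tumors, at 131 to 340 CPM in Panc02-SIY and 138 to 188 CPM in MC38. Tumor or stromal cells and dendritic cells also held Cadm1 or Dnase1l3 (given below), and the part of these markers in the levels was not tested. A further 2062 Panc02-SIY barcodes in cluster 3, with 7 of 12 macrophage markers raised but a median of only 985.5 UMIs over the cluster, were left unnamed (14.3% of untreated and 7.35% of irradiated Panc02-SIY barcodes).

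**Figure D1:**
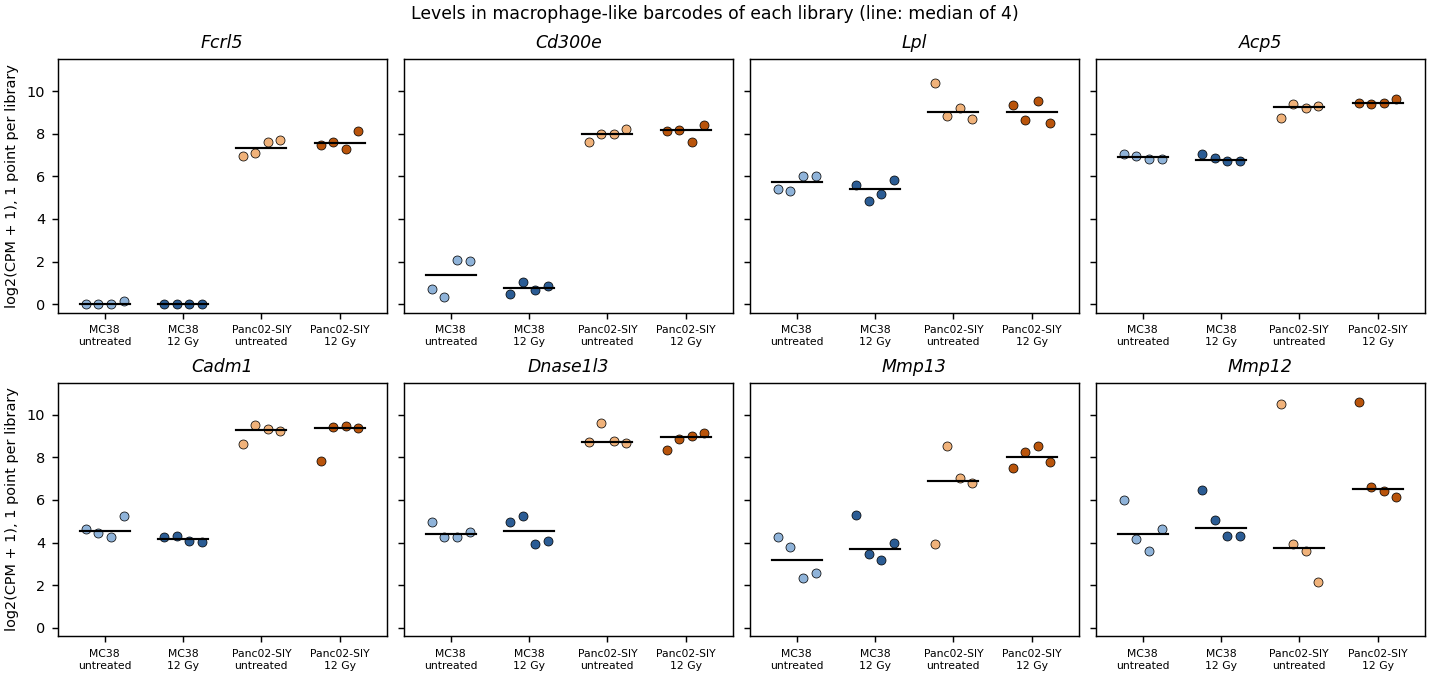
Level of each gene as log2(CPM + 1) on the y axis in the macrophage-like barcodes of each library, with 1 point per library, the groups on the x axis and a line at the median of 4. For Fcrl5, Cd300e, Lpl, Acp5, Cadm1 and Dnase1l3 all 8 Panc02-SIY points lie above all 8 MC38 points, whereas Mmp12 overlaps in both treatments and Mmp13 in untreated tumors.

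The receptors Fcrl5 and Cd300e separated the macrophages of the tumors most widely. Fcrl5 was at 122, 135, 194 and 210.4 CPM in the macrophage-like barcodes of untreated Panc02-SIY replicates 1 to 4, and at 177, 194, 152 and 282 CPM in the irradiated ones. In MC38 it was at 0 in 7 of 8 libraries, and the other, untreated replicate 4, held 1 UMI. The lowest Panc02-SIY library was thus above every MC38 library, and 0 of 19543207 UMIs in irradiated MC38 put Fcrl5 at least 1311-fold higher in irradiated Panc02-SIY, taking 3 counts over the group as the floor. These UMIs include barcodes repeated between the MC38 libraries, so the fold is a rough bound. Keeping each barcode in its richest library left that 1 UMI and no other.

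Cd300e was at 194, 251, 253 and 296 CPM in untreated Panc02-SIY and at 281, 288, 193 and 339 CPM in irradiated Panc02-SIY. MC38 libraries held 0.257 to 3.26 CPM untreated and 0.401 to 1.07 CPM irradiated. The groups did not overlap, and the ratio of group means was 137 in untreated and 378 in irradiated tumors, the latter against only 15 UMIs in irradiated MC38. With barcodes kept in their richest library the MC38 medians were 1.93 and 0.620 CPM.

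Cadm1 and Dnase1l3 were each higher in all Panc02-SIY libraries. Cadm1 was at 395, 734, 649.7 and 603 CPM untreated and at 225, 686, 712 and 652 CPM irradiated in Panc02-SIY, against 15.3 to 37.2 CPM in MC38. Irradiated Panc02-SIY replicate 1, with 62 barcodes, was the lowest of the 8. The means differed 23.8-fold untreated and 33.3-fold irradiated.

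Dnase1l3 was at 417, 786, 428 and 409 CPM in untreated and at 319, 467, 516 and 554 CPM in irradiated Panc02-SIY, against 14.3 to 37.2 CPM in MC38. Untreated replicate 2 stood above all other libraries. The means differed 23.2-fold and 18.9-fold.

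Lpl and Acp5 were the members that MC38 macrophages also held at moderate levels. Acp5 was at 111 to 130.4 CPM in untreated and 105 to 133 CPM in irradiated MC38, and at 431, 675, 598 and 637 CPM in untreated and 702, 672, 699 and 802 CPM in irradiated Panc02-SIY. The means were 4.90-fold apart untreated and 6.31-fold apart irradiated, and no library overlapped.

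Lpl was at 1343, 450.1, 589 and 409.9 CPM in untreated and at 654, 398, 732 and 362 CPM in irradiated Panc02-SIY, against 27.6 to 63.5 CPM in MC38. In untreated replicate 1, 82 of 187 UMIs came from 1 barcode, and the level without it was 808 CPM. The means differed 13.45-fold untreated and 12.997-fold irradiated.

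Mmp13 was at 14.4, 370.4, 130.3 and 109 CPM in untreated and at 182, 298, 363 and 216 CPM in irradiated Panc02-SIY. In MC38 it was at 4.07 to 17.9 CPM untreated and 8.18 to 38.5 CPM irradiated. Untreated Panc02-SIY replicate 1, with 2 UMIs, lay within the MC38 range, and the other 7 libraries lay above it.

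Among the named macrophage-like barcodes, Mmp12 did not behave as a gene of Panc02-SIY macrophages at large. It was at 1451, 14.1, 11.1 and 3.51 CPM in untreated and at 1544, 96.0, 84.4 and 70.4 CPM in irradiated Panc02-SIY, against 11.2 to 63.2 CPM and 18.5 to 86.9 CPM in MC38. Replicate 1 of each Panc02-SIY group was far above all others, while untreated replicates 3 and 4 lay below every MC38 library. The means were 12.9-fold higher in Panc02-SIY untreated, yet the medians were 12.6 CPM in untreated Panc02-SIY and 20.1 CPM in untreated MC38. In irradiated tumors the medians were 90.2 and 25.3 CPM. In all, 6 of 8 members had every Panc02-SIY library above every MC38 library in untreated and 7 of 8 in irradiated tumors, a count that the choice of the genes largely fixed. The share of all genes that separate in this way is not given here, so nothing particular to the members is read from it.

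Mmp12 RNA sat in few of the named macrophage-like barcodes. The unnamed cluster 3, not counted among these, held Mmp12 at 105 CPM over all libraries, against 5.45 and 5.66 CPM in clusters 8 and 22. Of 1644 Panc02-SIY macrophage-like barcodes, 11 with at least 20 Mmp12 UMIs held 1280 of 1608, or 79.6%. Of these 11, 9 were in cluster 7 and 2 in cluster 9, the clusters of MC38 macrophages, and none was in cluster 8, 10 or 22. None of the 11 had an Fcrl5 UMI, whereas 5 had Mmp13. In untreated replicate 1, 1 barcode held 178 of 202 Mmp12 UMIs, and the level without it was 187 CPM. In irradiated replicate 1, 1 barcode held 384 of 576, and the level without it was 572 CPM. Cluster 7 had at least 10 barcodes in 3 irradiated Panc02-SIY libraries, in which Mmp12 was at 786 to 1033 CPM. In the MC38 libraries of the same cluster it was at 12.1 to 37.2 CPM untreated and 18.7 to 173 CPM irradiated.

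**Figure D2:**
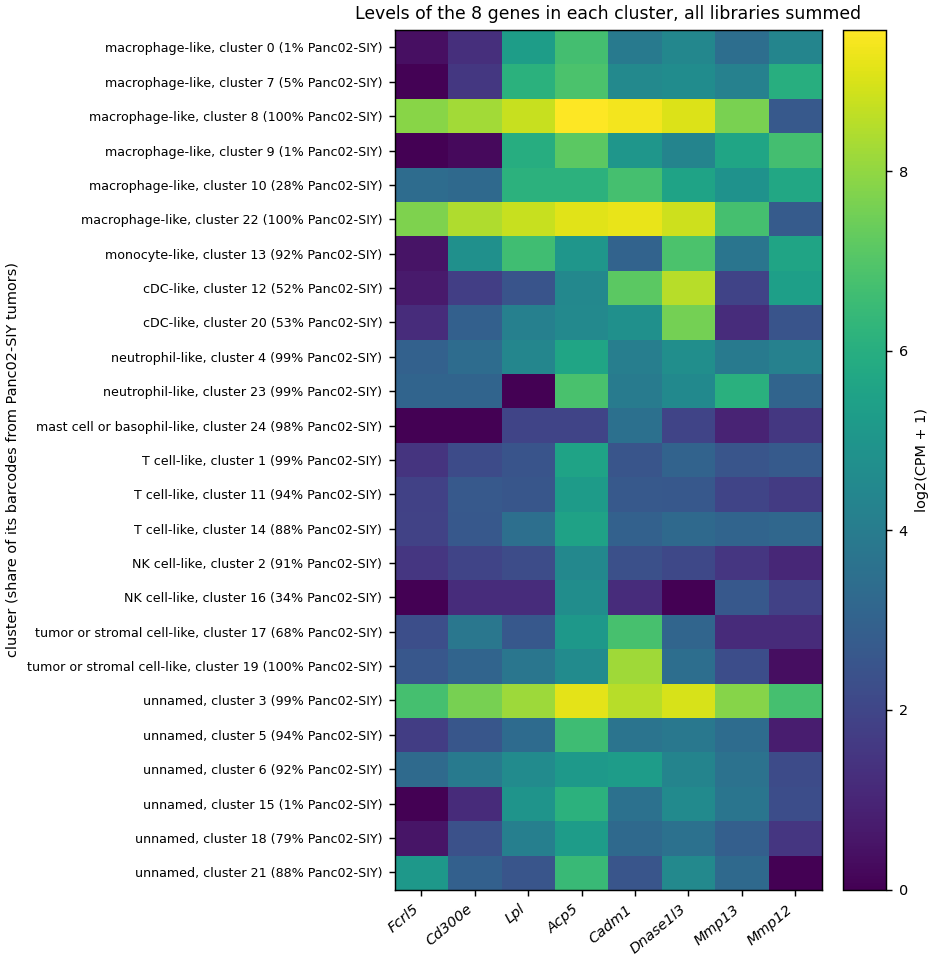
Heatmap of log2(CPM + 1), given by color, for the 8 genes (columns) in each of 25 clusters of at least 50 barcodes (rows, with the share of barcodes from Panc02-SIY), all libraries summed. The bright rows are clusters 8 and 22 and the shallow unnamed cluster 3, in which Fcrl5 was at 233, 209.6 and 107 CPM, whereas the Mmp12 column is dark in clusters 8 and 22 and Cadm1 is also bright in cluster 19.

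Within clusters 8 and 22 the members other than the proteases were found in most barcodes. Of the 1250 barcodes, 98.7% held at least 1 UMI of Acp5, 96.8% of Cadm1, 95.9% of Dnase1l3, 91.4% of Cd300e, 83.2% of Lpl and 81.4% of Fcrl5. Mmp13 was found in 44.7% and Mmp12 in 3.28%. At least 5 of the 8 were found together in 92.6% of barcodes, and all 8 in 19 barcodes (1.52%). Clusters 8 and 22 had median depths of 16597.5 and 25701 UMIs, so these shares describe deep barcodes.

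At an equal depth of 1000 UMIs per barcode the shares could be set beside those of other cells. Fcrl5 was found in 16.9% of untreated and 19.7% of irradiated Panc02-SIY macrophage-like barcodes, against 0.166% and 0.188% of T cell-like barcodes of the same libraries, which should lack most of these genes. MC38 macrophage-like barcodes gave 0 of 2557 untreated, an exact 95% interval up to 0.144%. That interval counts sequences repeated between MC38 libraries as separate barcodes, so it is too narrow. Unthinned, the Fcrl5 shares were 67.2% and 58.9% in Panc02-SIY macrophages (median depths of 15190.5 and 13024.5 UMIs) and 1.72% and 1.03% in T cells (8775 and 6480 UMIs). Thinning left out 43 of 900 and 75 of 744 macrophage-like barcodes and 769 of 3326 in untreated MC38, all shallower than 1000 UMIs. Intervals cover counting error only.

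The other members stood above the T cell level to different degrees. Thinned shares in untreated Panc02-SIY macrophages were 21.2% for Cd300e, 27.5% for Lpl, 46.1% for Cadm1, 32.2% for Dnase1l3 and 11.4% for Mmp13, and the T cell-like shares of these genes were 0.199% to 0.796%. Acp5 was found in 38.6% of macrophages and also in 5.04% of T cells. Mmp12 was found in 0.817% (exact 95% interval 0.329% to 1.68%) of untreated and 3.44% of irradiated Panc02-SIY macrophages. In MC38 macrophages the Mmp12 shares were 1.56% and 1.69%, between those values.

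Fcrl5 and Cd300e went together from barcode to barcode, and Mmp13 ran against them. Over barcodes of clusters 8 and 22, Pearson's r of Fcrl5 with Cd300e was 0.47 to 0.73 within the 6 libraries deep enough to compute it. For Fcrl5 with Mmp13 it was -0.53 to -0.25, and for Cd300e with Mmp13 -0.48 to -0.20. Values of the same barcode share its depth, and no p is given. Among barcodes with at least 5000 UMIs, those with an Fcrl5 UMI had Cd300e at 295 to 413 CPM in the 6 libraries, and those without had 60.1 to 139 CPM. In untreated replicate 4, which had the most barcodes, Mmp13 was at 81.0 CPM in 451 barcodes with Fcrl5 and at 262 CPM in 87 without. Mmp13 was higher without Fcrl5 in 5 of 6 libraries, and irradiated replicate 3 was the exception with 392 against 406 CPM. Dnase1l3 showed no such split, being higher without Fcrl5 in 3 of 6 libraries.

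**Figure D3:**
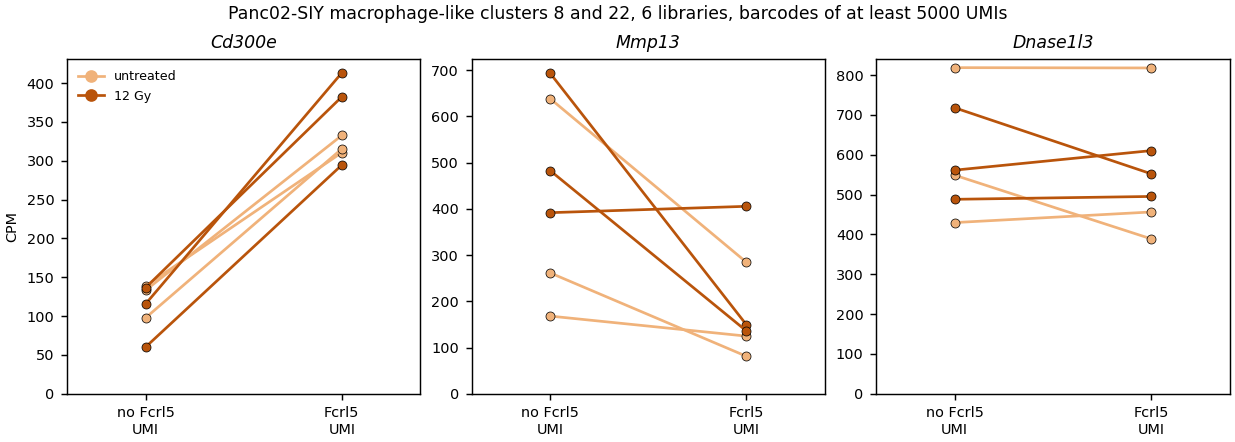
Levels in CPM on the y axis of Cd300e, Mmp13 and Dnase1l3 in barcodes without and with an Fcrl5 UMI (x axis), each line joining the values of 1 of 6 Panc02-SIY libraries, in clusters 8 and 22. Cd300e is higher with Fcrl5 in all 6 libraries, Mmp13 is lower in 5 of 6, and Dnase1l3 has no common direction.

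Genes most like each member over the 25 clusters, by Pearson's r of log2(CPM + 10), were picked by a fixed rule of the 3 highest. Cd300e was most like Gbp2b (r = 0.98), Tmem26 (0.97) and Pparg (0.97), a nuclear receptor of lipid metabolism, and Fcrl5 was most like Ptprm (0.95), Klra17 (0.94) and Tmem26 (0.94). Lpl was most like Nr1h3 (0.95), which encodes the sterol sensor LXR alpha, Lilra5 (0.93) and Clec4a3 (0.92). Acp5 and Mmp13 shared Kcnj10 (0.92 and 0.95) and Hebp1 (0.91 and 0.94), and were like each other (0.91), while C6 was the last of the 3 for Mmp13 (0.93). Dnase1l3 was most like Shtn1 (0.96), Usp12 (0.92) and Clec1b (0.91), and Cadm1 most like Smad1 (0.87), Vcam1 (0.86) and Tcf7l2 (0.86). Mmp12 was apart, with Trf (0.81), Stard8 (0.79) and Rnf150 (0.78), and its r with Fcrl5 was 0.04. The clusters share libraries and depth, so these are descriptions.

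In the other cell classes of Panc02-SIY tumors each member had its own order. Medians over the 8 Panc02-SIY libraries are given, and the ranges show where neighbors overlap. Fcrl5 had a median of 185 CPM (122 to 282) in macrophage-like barcodes and at most 2.54 CPM in any other named class, with a highest single library of 19.1 CPM in neutrophil-like barcodes. Cluster 21, left unnamed because 7 of 7 B cell and 5 of 5 plasma cell markers were raised alike, held Fcrl5 at 33.2 CPM over all libraries. Cd300e had 267 CPM (193 to 339) in macrophages and 37.3 CPM (13.1 to 77.0) in monocyte-like barcodes, with no overlap, and at most 5.11 CPM in the other named classes.

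Lpl followed the same order, with 520 CPM (362 to 1343) in macrophages and 102 CPM (58.4 to 317) in monocytes, again with no overlap, and at most 13.7 CPM elsewhere among named classes. Acp5 had 673 CPM (431 to 802) in macrophages. Next came neutrophils (51.3 CPM), T cells (37.4 CPM), monocytes (34.5 CPM) and tumor or stromal cells (23.4 CPM), whose ranges all overlapped. Mmp13 had 199 CPM (14.4 to 370.4) in macrophages and at most 11.8 CPM in any other named class, the highest of which, neutrophils, reached 42.1 CPM in 1 library and so overlapped the lowest macrophage library.

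Cadm1 and Dnase1l3 extended beyond macrophages. Cadm1 had 651 CPM (225 to 734) in macrophages, 300.3 CPM (186 to 523) in tumor or stromal-like barcodes and 88.8 CPM (43.2 to 402) in cDC-like barcodes (conventional dendritic cells), neighbors whose ranges overlapped. The tumor or stromal-like barcodes were 3.24% of all despite the CD45 sort, and those of MC38 held no Cadm1 UMI. Dnase1l3 had 447 CPM (319 to 786) in macrophages, 325 CPM (148 to 1137) in cDCs and 108 CPM (48.1 to 179) in monocytes, of which only macrophages and monocytes did not overlap. Mmp12 had 77.4 CPM (3.51 to 1544) in macrophages, 27.9 CPM (0 to 64.6) in monocytes and 24.4 CPM (2.54 to 125) in cDCs, all overlapping. In MC38 the same class order did not hold for Dnase1l3, whose cDC median of 36.3 CPM (18.6 to 93.7) was above the macrophage median of 19.9 CPM (14.3 to 37.2), with overlap.

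Radiation was then compared within each tumor, to ask whether these genes moved in the first day after 12 Gy. Counts were summed per library and class and tested with edgeR's quasi-likelihood test on all genes, with a call needing a fold change above 1.3 and a p, adjusted by Benjamini-Hochberg, below 0.1. In macrophage-like barcodes 0 of 8 members were called in Panc02-SIY, where 6.83% of 10810 genes were, and 0 of 8 in MC38, where 5.05% were. At an unadjusted p below 0.05 there was 1 member in Panc02-SIY, Acp5, and 0 in MC38, against 2016 and 1738 of all genes. DESeq2 called 0 members in either. For the difference of the radiation effects between the tumors 0 of 8 were called by either tool, against 0.0278% of genes. There 0 members and 820 of all genes were at an unadjusted p below 0.05 in edgeR.

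The intervals differed widely in what they left possible. In Panc02-SIY macrophages the log2 fold change of Acp5, irradiated over untreated, was 0.28 (95% interval 0.02 to 0.55, adjusted p = 0.232 by edgeR). The irradiated libraries were at 672 to 802 CPM and the untreated ones at 431 to 675 CPM, overlapping by a narrow margin. Fcrl5 was at 0.26 (-0.20 to 0.72, adjusted p = 0.574 by edgeR) and Cd300e at 0.11 (-0.38 to 0.61, adjusted p = 0.866 by edgeR), so a change over 2-fold in either lay outside the interval. Cadm1 was at -0.06 (-0.69 to 0.57), Dnase1l3 at -0.12 (-0.78 to 0.54) and Lpl at -0.23 (-1.02 to 0.55), with adjusted p of 0.964, 0.900 and 0.804 by edgeR. The groups of each of these overlapped.

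The proteases were the least certain. Mmp13 was at 0.56 (-0.67 to 1.79, adjusted p = 0.663 by edgeR), its irradiated libraries lying between 182 and 363 CPM, within the untreated range of 14.4 to 370.4 CPM. Mmp12 was at 1.69 (-2.68 to 6.07, adjusted p = 0.720 by edgeR), and the result turned on untreated replicate 1, since without that library of 30 macrophage-like barcodes the change was 5.72 (adjusted p = 0.0553 by edgeR) and was called. That was the only call of Mmp12 there in 21 alternative settings. Over the 6 libraries of replicates 2 to 4, macrophage-like barcodes held 70.4 to 96.0 CPM irradiated and 3.51 to 14.1 CPM untreated, with no overlap. The irradiated levels rested on few barcodes, since 1 barcode held 82 of 124, 43 of 127 and 158 of 496 UMIs. The untreated macrophage-like barcodes held 31, 14 and 38 UMIs. Unnamed barcodes, which include cluster 3, are not in these levels. They held 130, 9 and 7 Mmp12 UMIs untreated and 88, 15 and 48 irradiated. Whether the groups stay apart with them added was not tested. The irradiated Mmp12 RNA lay mostly in cluster 7, which had 9 untreated and 51 irradiated Panc02-SIY barcodes.

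In MC38 macrophages Cd300e was at -1.36 (-2.80 to 0.08, adjusted p = 0.348 by edgeR) on counts of 1 to 27 UMIs per library, and at -1.77 with each barcode kept in its richest library. The other members lay between -0.52 for Cadm1 and 0.89 for Mmp13 where they had counts to test, all with intervals spanning 0, and Fcrl5 rested on 1 UMI. With each barcode in its richest library no member was called either, while the number of all genes called rose from 546 to 1322. How far the shared barcodes shaped the MC38 changes was not tested.

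**Figure D4:**
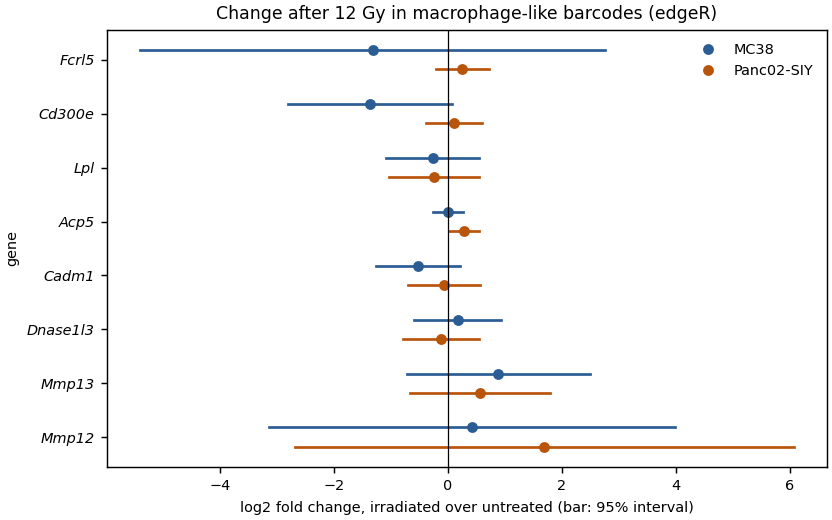
Log2 fold change of irradiated over untreated on the x axis, with 95% intervals as bars, for each gene (y axis) in macrophage-like barcodes of MC38 and Panc02-SIY tumors. All intervals span 0 except that of Acp5 in Panc02-SIY, which runs from 0.02 to 0.55, and those of Mmp12 are the widest in Panc02-SIY.

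In cDC-like barcodes of Panc02-SIY tumors Cadm1 and Dnase1l3 were lower in most irradiated libraries, though the test did not call them. Cadm1 was at 43.2, 402, 162 and 334 CPM untreated and at 56.0, 74.2, 54.1 and 103 CPM irradiated. Untreated replicate 1 was the lowest of the 8 libraries, and the other untreated libraries were above all irradiated ones. The log2 change was -1.75 (SE 0.53, 95% interval -2.88 to -0.62, adjusted p = 0.137 by edgeR). Without untreated replicate 1 it was -2.07 (adjusted p = 0.00921 by edgeR) and was called, in a fit that called 622 of all genes against 150 with every library. Cadm1 was called in 3 of 19 alternative settings.

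Dnase1l3 was at 158, 1137, 366 and 784 CPM untreated and at 179, 148, 307 and 343 CPM irradiated in these cells. The groups overlapped only through untreated replicate 1. The log2 change was -1.37 (SE 0.50, 95% interval -2.45 to -0.30, adjusted p = 0.233 by edgeR), and without that replicate -1.68 (adjusted p = 0.0341 by edgeR), which was called. Of 19 alternative settings 2 called Dnase1l3.

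Mmp12 went the other way in cDCs, at 2.54, 17.97, 16.5 and 30.8 CPM untreated and 97.0, 72.8, 125 and 9.58 CPM irradiated. All irradiated libraries but replicate 4 were above all untreated ones. Its log2 change was 1.82 (95% interval 0.32 to 3.31, adjusted p = 0.250 by edgeR), and 2.26 without irradiated replicate 4 (adjusted p = 0.0653 by edgeR), which was called. It was called in 2 of 18 alternative settings. Its UMIs came from few barcodes again, with 44 of 45 in untreated replicate 4 from 1 barcode. Acp5 was at -0.69 (-1.53 to 0.15, adjusted p = 0.462 by edgeR). In all, 0 of the 4 members that could be tested were called in Panc02-SIY cDCs, where 2.34% of 6408 genes were. At an unadjusted p below 0.05 there were 3, as were 902 of all 6408 genes, and DESeq2 called 0 members. In MC38 cDCs 0 of 4 were called against 0.109% of genes, and none was at an unadjusted p below 0.05 in edgeR, against 312 of all genes. For the difference between the tumors 0 of 4 cDC members were called against 0% of genes. At an unadjusted p below 0.05 there was 1, Mmp12, against 436 of all genes. DESeq2 called 0 members in MC38 cDCs and for this difference.

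The cDC-like barcodes held markers of several subsets, whose part in these differences was not tested. The summed level of 8 markers of type 1 cDCs (cDC1) was 2528 to 5473 CPM in untreated and 2279 to 3827 CPM in irradiated Panc02-SIY, that of 8 type 2 markers was 371 to 930.0 and 822 to 1821 CPM, and that of 8 markers of mature regulatory dendritic cells (mregDC) was 439 to 4391 and 1672 to 4612 CPM, all overlapping. Finer clustering gave subcluster 25, with 8 of 8 cDC1 and 4 of 8 type 2 markers raised, in which Cadm1 was at 313 CPM untreated and 84.7 CPM irradiated and Dnase1l3 at 751 and 286 CPM over all Panc02-SIY libraries. In subcluster 33, with 8 of 8 mregDC markers raised, Dnase1l3 was at 248 and 246 CPM and Cadm1 at 57.7 and 26.6 CPM. Subcluster 21, with 7 of 8 cDC1 and 4 of 8 type 2 markers raised, had Dnase1l3 at 985 and 403 CPM and Cadm1 at 242 and 403 CPM. Its irradiated values rest on 64 barcodes with 62084 UMIs, against 181 barcodes with 2716264 UMIs in subcluster 25. In subclusters 21 and 25, which the markers do not assign to a single subset, Dnase1l3 was lower in the irradiated tumors and Cadm1 lay in opposite directions, in values pooled over libraries with no test.

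**Figure D5:**
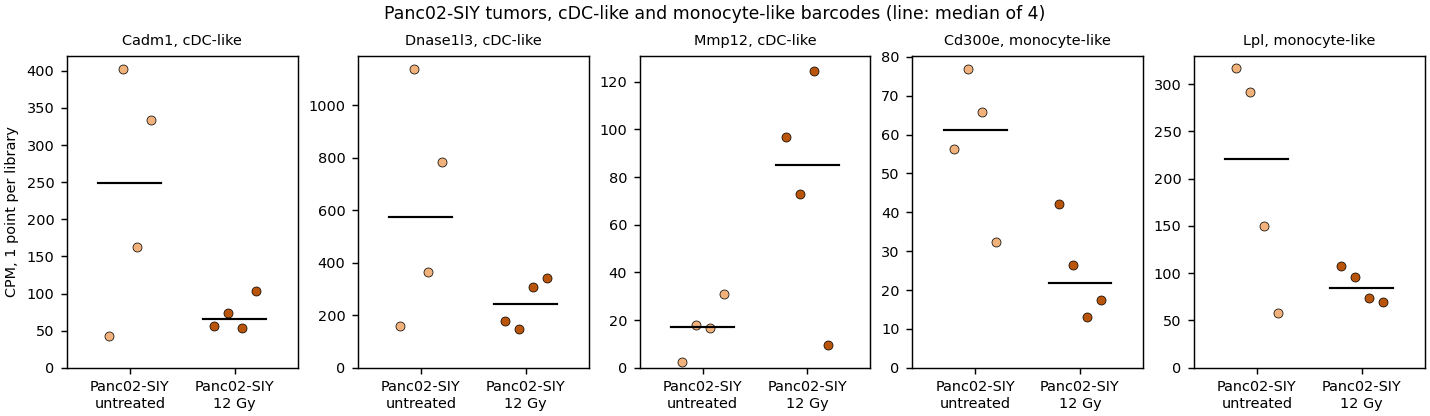
Levels in CPM on the y axis of Cadm1, Dnase1l3 and Mmp12 in cDC-like and of Cd300e and Lpl in monocyte-like barcodes of untreated and irradiated Panc02-SIY tumors (x axis), with 1 point per library and a line at the median of 4. For Cadm1 and Dnase1l3, 3 of the 4 untreated points lie above all irradiated ones, and Mmp12 is higher in 3 of 4 irradiated libraries.

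In monocyte-like barcodes of Panc02-SIY tumors Cd300e and Lpl were lower in most irradiated libraries, and the test did not call them. Cd300e was at 56.3, 77.0, 65.8 and 32.5 CPM untreated and at 42.2, 26.4, 13.1 and 17.4 CPM irradiated. Only untreated replicate 4 and irradiated replicate 1 overlapped. The log2 change was -1.39 (SE 0.37, 95% interval -2.18 to -0.60, adjusted p = 0.207 by edgeR), and -1.66 without irradiated replicate 1 (adjusted p = 0.0753 by edgeR), which was called. Of 19 alternative settings 5 called Cd300e.

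Lpl was at 317, 292, 150.1 and 58.4 CPM untreated and at 108, 95.7, 73.9 and 70.0 CPM irradiated in monocytes. Untreated replicate 4 was the lowest of all, and the other 3 untreated libraries were above every irradiated one. The log2 change was -1.22 (SE 0.45, 95% interval -2.26 to -0.19, adjusted p = 0.459 by edgeR), and -1.53 without untreated replicate 4 (adjusted p = 0.0568 by edgeR), which was called. That was the only call of Lpl in 19 alternative settings. These libraries held 28 to 77 monocyte-like barcodes untreated and 69 to 240 irradiated. Finer clustering gave monocyte-like subclusters 20 and 28, whose balance differed between the treatments. They had 133 and 56 untreated and 344 and 281 irradiated Panc02-SIY barcodes. The part of this balance in the Cd300e and Lpl differences was not tested.

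The other members tested in monocytes lay at -0.27 for Acp5, 0.26 for Dnase1l3, 1.07 for Mmp12 and 1.11 for Mmp13, each with an interval spanning 0. Fcrl5 and Cadm1 were too low to be tested. In all, 0 of 6 members were called, where 0.221% of 7252 genes were, and DESeq2 called 0 of them. At an unadjusted p below 0.05 there were 2, against 690 of all genes. Only 3 MC38 libraries had at least 10 monocyte-like barcodes in the main clustering, of which 1 was untreated, so MC38 monocytes are not described. Their scarcity depends on the clustering. Finer clustering named subcluster 16 monocyte-like, with 296 untreated and 311 irradiated MC38 barcodes. It had 6 of 9 monocyte and 6 of 12 macrophage markers raised.

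Over all CD45+ barcodes of a library, where fewer cells of a type and less RNA per cell cannot be told apart, 0 of 8 members were called in Panc02-SIY (16.5% of 12615 genes were), in MC38 (3.99%) or for the difference between the tumors (2.65%). At an unadjusted p below 0.05 there were 1, 0 and 0, against 3988, 2125 and 1773 of all genes, and DESeq2 called 0 members in each. The 1 was Mmp12, with a log2 change of 1.81 in Panc02-SIY (95% interval 0.14 to 3.48, adjusted p = 0.125 by edgeR), and it was called without untreated replicate 1 (2.84, adjusted p = 0.0232 by edgeR). Of 17 alternative settings 2 called it.

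The relatives of the members were counted from lists fixed by family and pathway, in macrophage-like barcodes, where they could be tested on the radiation contrast. The counts stand beside 6.83% of the 10810 genes tested that were called in Panc02-SIY and 5.05% in MC38, and nothing particular to a list is read from them. The make-up of the class also differed between the 900 untreated and 744 irradiated Panc02-SIY barcodes. Cluster 7 had 9 and 51 of them, and the cycling cluster 22 had 113 and 49. The part of this difference in the changes below was not tested. Of 18 other matrix metalloproteinases and their inhibitors 8 were measured well enough. Mmp2, a gelatinase, and Mmp8, a neutrophil collagenase, rose in Panc02-SIY by 2.07 (SE 0.49, adjusted p = 0.0244 by edgeR) and 2.30 (SE 0.52, adjusted p = 0.0162 by edgeR) on the log2 scale, from means of 1.69 and 0.748 CPM. These 2 of 8 were the calls in Panc02-SIY, DESeq2 called neither, and 6 of the 8 were at an unadjusted p below 0.05 in edgeR, as were 2016 of all 10810 genes. None of the 8 fell in Panc02-SIY, and in MC38 edgeR and DESeq2 called 0 of them, with 3 at an unadjusted p below 0.05 in edgeR, as were 1738 of all genes. The median change of the 8 was 1.39 in Panc02-SIY and 0.67 in MC38, where that of all genes tested was 0.00 and -0.01. The highest of the list in Panc02-SIY macrophages were Mmp14, a membrane collagenase, at 209.6 and 249 CPM untreated and irradiated (162 and 158 CPM in MC38), and Timp2, an inhibitor, at 47.3 and 61.3 CPM (172 and 164 CPM in MC38).

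Of 15 genes of the Fc receptor-like and CD300 families and their adaptors 9 were tested, and Cd300ld was the only one called, rising in both tumors. Its log2 change was 0.75 in Panc02-SIY (SE 0.19, adjusted p = 0.0353 by edgeR) and 0.71 in MC38 (adjusted p = 0.0193 by edgeR). The median of the list was 0.03 in Panc02-SIY and 0.16 in MC38. The signaling adaptors Fcer1g and Tyrobp were at 5010.3 and 2429 CPM in untreated Panc02-SIY and 3570.4 and 2236 CPM in untreated MC38. Fcrls, a family member, ran against Fcrl5, at 2.90 CPM in untreated Panc02-SIY and 211 CPM in untreated MC38, and it was named after its values were seen.

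Of 20 genes of lipoprotein and fatty acid handling 17 were tested. In Panc02-SIY macrophages Lrp1, a lipoprotein receptor, rose by 0.92 (adjusted p = 0.00251 by edgeR), Abcg1, a cholesterol exporter, by 0.58 (adjusted p = 0.00668 by edgeR) and Acsl1, which activates fatty acids, by 0.57 (adjusted p = 0.0858 by edgeR), which makes 3 of 17, and none fell. In MC38 Plin2, a lipid droplet protein, rose by 0.43 (adjusted p = 0.0196 by edgeR) and Lrp1 by 0.45 (adjusted p = 0.0719 by edgeR), which makes 2 of 17, and none fell. DESeq2 called 1 of the list in MC38. The medians were 0.41 and 0.01. Apoe, the list's most abundant gene, was at 1884 CPM in untreated Panc02-SIY and 13032 CPM in untreated MC38, opposite to Lpl, and Abcg1 was at 258 and 56.3 CPM. With the libraries of a group summed, as for C1qa above, Apoe was at 1335 and 13000 CPM.

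None of the 9 tested of 14 osteoclast and lysosomal genes was called in either tumor, and their medians were 0.30 in Panc02-SIY and 0.13 in MC38. At an unadjusted p below 0.05 there were 0 in edgeR in either tumor, and DESeq2 called 0. Nfatc1, the osteoclast transcription factor, was at 59.8 CPM in untreated Panc02-SIY and 30.1 CPM in untreated MC38, and Tnfrsf11a, the RANK receptor, at 52.3 and 46.2 CPM, so neither differed between the tumors as far as Acp5 did. Of 11 nectin-like adhesion genes and their partners 5 were tested, and Nectin2 rose in Panc02-SIY by 1.44 (adjusted p = 0.0879 by edgeR) from 0.902 to 3.95 CPM, a call that DESeq2 did not make, with list medians of 0.22 and -0.10. Pvr, the poliovirus receptor, was at 20.8 CPM in untreated Panc02-SIY and 39.3 CPM in untreated MC38, and Cd96, a receptor for it, at 5.40 and 0.591 CPM. Of 11 deoxyribonucleases and DNA uptake genes 6 were tested, and Pld3, a lysosomal exonuclease, rose in Panc02-SIY by 0.57 (adjusted p = 0.0278 by edgeR), with medians of 0.08 and -0.04. Pld4, its relative, was at 723 and 417 CPM in the untreated tumors and Samhd1 at 598 and 446 CPM. No gene of these lists was called for the difference between the tumors in macrophages.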

How the data were processed

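Per the labels, the 16 libraries were 10x 3′ version 3.0 single-cell RNA libraries of sorted live CD45+ cells. The authors made the deposited UMI counts per gene and cell barcode with Cell Ranger 3.1.0 (bcl2fastq 2.20.0, mm10), with 1 matrix per library and no pooling. A table aggregated over all libraries was not used. The members and gene lists were chosen with earlier results of these data known. The named genes were the 8 members, then the called genes and the 2 highest in Panc02-SIY macrophages of each list, and the 3 genes most correlated with each member over clusters, among genes at 20 CPM or more in 1 of them.

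All deposited barcodes were kept in the main analysis. They were clustered in scanpy 1.11.5 (2000 variable genes without the members, 30 principal components, 20 neighbors, Leiden resolution 1), and a cluster was named where at least 3 markers of a class exceeded a log2 fold of 1 over the mean of clusters of 50 or more barcodes, with a pseudocount of 20 CPM. Clusters stayed unnamed where classes tied, where another class led the top 10 genes, or where they were shallow with no marker of the class among those. Scrublet's automatic threshold marked 31 barcodes (0.108%), too few to have worked, so doublets were not removed in the main analysis. An alternative removed the 5% of highest score in each library.

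UMIs were summed per library and class (at least 10 barcodes) and tested with edgeR 4.0.16 (R 4.3.3, quasi-likelihood, TMM scaling, default filter of 10 and 15 counts, 4 groups in 1 fit, no replicate block), after a test on simulated data. DESeq2 1.42.0 was an alternative. Other alternatives were RLE scaling, no filter, only the groups compared, the replicate block, a filter on barcodes (500 or more genes detected, no more than 10% of UMIs mitochondrial), each barcode in its richest library, depth thinned to the lowest mean per barcode, resolution 2, the members used in clustering, and leaving out each library. Clusters 8 and 22 alone, cluster 3 added, and levels without the top barcode were chosen after seeing the data. UMI intervals are exact (Clopper-Pearson) and cover counting error only. They take repeated MC38 barcodes as separate.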

Additional observations from a re-analysis of the deposited data

Results flagged for a closer look

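In groups of 4 libraries, a value was singled out where its gap to the nearest other exceeded Dixon's critical value, which chance does in about 1 of 20 groups. Of 99 groups examined, 10 were singled out. In macrophage-like barcodes of Panc02-SIY these were Mmp12 in replicate 1 of both groups, at 1451 CPM untreated (others 3.51 to 14.1) and 1544 CPM irradiated (70.4 to 96.0), Cadm1 in irradiated replicate 1, at 225 CPM (652 to 712), and Dnase1l3 in untreated replicate 2, at 786 CPM (409 to 428). Both replicate 1 libraries held the fewest macrophage-like barcodes of their group, 30 and 62.

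Over all CD45+ barcodes of irradiated Panc02-SIY, replicate 4 stood apart for Fcrl5, at 78.4 CPM (others 16.7 to 23.4), and Cd300e, at 97.1 CPM (28.3 to 36.4), and it held 454 of 744 macrophage-like barcodes. Replicate 1 stood apart there for Mmp12, at 125 CPM (26.4 to 33.3). In cDC-like barcodes of Panc02-SIY, Lpl was at 30.8 CPM in untreated replicate 4 (others 0 to 3.27), Mmp13 at 11.4 CPM in untreated replicate 2 (0 in the others) and at 11.6 CPM in irradiated replicate 3 (0 to 1.46).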

How the results depend on the processing

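No member was called in any comparison as reported. The count of members called in Panc02-SIY became 1 in all CD45+ barcodes with the replicate block (Mmp12, log2 change 2.00, adjusted p = 0.00522 by edgeR). In monocytes it became 1 (Cd300e) with no filter, the replicate block, doublets removed or the members in clustering, with changes of -1.34, -1.42, -1.63 and -1.36. In cDCs it became 4 with no filter and 1 with the replicate block (Cadm1, -1.61, adjusted p = 0.0553 by edgeR), and with no filter 1 (Mmp12) was called for the difference between the tumors. The cause was not tested. Same-numbered untreated and irradiated libraries correlated at -0.18 to 0.82 in Panc02-SIY and -0.04 to 0.26 in MC38 over all barcodes, and not every library correlated best with its own number, so the numbers were not taken as pairs there. In Panc02-SIY macrophages alone all 4 correlations were over 0.1 (0.1003 to 0.586), and with the block 0 members were called, with 343 genes that rose and 351 that fell. The block changed no other call of a member.

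Leaving out 1 library gave 0 to 1 members called in Panc02-SIY over all barcodes, in macrophages and in monocytes, and 0 to 2 in cDCs. The log2 changes ranged over 0 in Panc02-SIY macrophages for Fcrl5 (-0.00977 to 0.47), Cd300e (-0.0393 to 0.29), Lpl (-0.39 to 0.16), Cadm1 (-0.16 to 0.18) and Dnase1l3 (-0.21 to 0.23), in MC38 macrophages for Acp5 (-0.0784 to 0.0485), Mmp12 (-0.26 to 1.13) and Dnase1l3 (-0.12 to 0.38), and in Panc02-SIY monocytes for Dnase1l3 (-0.0753 to 0.52). Near-0 values also turned sign for Cadm1 (0.00105 in clusters 8 and 22, 0.0300 with cluster 3), Dnase1l3 (0.0107 in clusters 8 and 22) and, in MC38, Acp5 (-0.00400 with no filter).

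Counts over all genes moved more: 738 called in Panc02-SIY macrophages became 26 with only the 2 groups compared and 1172 without irradiated replicate 4, and 546 in MC38 became 283 without irradiated replicate 4 and 1322 with barcodes in their richest library. The 16 called in Panc02-SIY monocytes became 2 without irradiated replicate 4 and 200 with no filter, and the 150 in Panc02-SIY cDCs became 12 with only the 2 groups and 622 without untreated replicate 1. Over all barcodes the 503 in MC38 became 237 to 1455 and the 334 for the difference between the tumors 18 to 523, while that difference had 2 to 44 in macrophages (3 as reported) and 0 to 59 in cDCs (0), and MC38 cDCs had 1 to 42 (7). Depth limits the MC38 macrophage values of Fcrl5, carried by 1 UMI, and of Cd300e, with 15 irradiated UMIs.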
